A study of Mus musculus with 6 samples.

Results

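Retinol transport and retinoid response genes were followed in KPF_5.3G, a mouse line of pancreatic ductal adenocarcinoma grown as organoids, with and without knockdown of Jag1, a Notch ligand. The set held 9 genes chosen by name for their role in the pathway, with earlier results of these data known. All 9 genes were listed among the 14254 genes of the deposited table. They were the retinol carrier Rbp4 and its receptor Stra6, the retinoic acid carrier Crabp2, the enzymes Aldh1a1, Aldh1a3 and Dhrs3, and the receptors Rara, Rarb and Rarg. Controls carried a control shRNA (shCtrl, genotype WT in the labels, 3 libraries), and knockdowns carried a lentiviral shRNA against Jag1 (shJag1_3, genotype Jag1 knockdown, 3 libraries). Both groups were the same line in the same gel culture medium, with EGF, hFGF-10, gastrin, nicotinamide, N-acetylcysteine, R-Spondin-1, Noggin and B27. B27 is sold with and without vitamin A, and the labels do not say which was used. The study asked what Jag1 does in CD9hi tumour-initiating cells with a hybrid epithelial and mesenchymal state. The alleles of the line are not spelled out in the labels. The study used 1 line and 1 hairpin against Jag1, and its replicates are described as biological without saying what separated them, so p-values measure the spread between these libraries.

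Vitamin A circulates as retinol bound to Rbp4, and Stra6 is the membrane receptor that takes retinol up from it. Inside the cell retinol is oxidised to retinal by Rdh10, a step that Dhrs3 reverses, and retinal is oxidised to retinoic acid by the Aldh1a enzymes. Crabp2 carries retinoic acid to the nuclear receptors Rara, Rarb and Rarg, which bind DNA with an RXR partner at paired half-sites, and enzymes of the Cyp26 family degrade it. Stra6, Rarb, Dhrs3, Crabp2 and Cyp26 genes are themselves known as genes that retinoic acid can induce. In pancreas development retinoic acid takes part in patterning the organ, and stellate cells are its retinoid store.

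The RefSeq promoter table (GRCm38.p6, windows of 300 bases) held 18 windows for 7 of the 9 members, with none for Crabp2 and Aldh1a3. The best known retinoic acid response element is a direct repeat with a spacer of 5 bases, called DR5. It was searched on both strands as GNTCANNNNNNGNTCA, where N is any base. The letters stood in 0.861% of all 32851 windows and in 1 of the 18 member windows, that of Rarb. This window (minus strand, chr14:16575427-16575726) is shown because it carries the match, in capitals, 53 to 37 bases before the RefSeq start. The capitals take in the base before the searched letters and so hold both half-sites whole, at chr14:16575513-16575529.
Rarb: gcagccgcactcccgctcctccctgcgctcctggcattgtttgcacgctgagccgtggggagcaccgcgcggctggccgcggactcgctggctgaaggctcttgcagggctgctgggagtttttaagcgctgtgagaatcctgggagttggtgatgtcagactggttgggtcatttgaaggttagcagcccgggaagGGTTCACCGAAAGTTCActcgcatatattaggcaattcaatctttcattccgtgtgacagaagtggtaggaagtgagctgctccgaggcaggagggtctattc
The corresponding repeat with a spacer of 2 bases, GNTCANNNGNTCA, was in 1.12% of all windows and in 0 member windows, and that with a spacer of 1 base, GNTCANNGNTCA, in 1.26% and 0. None of the 3 repeats stood in the 49 windows of 37 other genes of the pathway. Stra6 and Rbp4, the 2 members with the largest differences between groups, are shown for comparison. The first of the 4 Stra6 windows lies on the plus strand at chr9:58128838-58129137.
Stra6: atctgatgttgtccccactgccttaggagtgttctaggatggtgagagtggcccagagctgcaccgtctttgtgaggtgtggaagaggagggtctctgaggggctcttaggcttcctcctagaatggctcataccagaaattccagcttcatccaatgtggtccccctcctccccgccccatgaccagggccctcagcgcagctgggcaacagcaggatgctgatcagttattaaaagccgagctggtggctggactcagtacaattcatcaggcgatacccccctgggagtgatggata
The second of the 2 Rbp4 windows lies on the minus strand at chr19:38124762-38125061, with the letters TATAAA in capitals, 28 to 23 bases before the RefSeq start. TATAAA on either strand stood in 13.6% of all windows.
Rbp4: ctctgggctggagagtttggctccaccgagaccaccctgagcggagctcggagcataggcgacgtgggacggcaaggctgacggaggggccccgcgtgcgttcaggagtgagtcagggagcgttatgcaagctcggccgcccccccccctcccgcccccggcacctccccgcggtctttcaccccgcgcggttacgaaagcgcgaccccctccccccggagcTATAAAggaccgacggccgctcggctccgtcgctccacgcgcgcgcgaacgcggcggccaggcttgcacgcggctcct
A match is a description of these letters, and no match says only that they are not in these windows.

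Libraries held 22268997 to 35172593 reads, and values are normalised read counts (reads divided by 1 size factor per library). Both replicate 1 libraries stood apart from the other 4 on the first principal component (55.8% of the variance). Results are therefore given by replicate number, and also for replicates 2 and 3 only. Jag1 itself was at 55.0%, 32.6% and 65.8% of the control with the same number in knockdowns 1, 2 and 3. The 2 groups overlapped for Jag1, since control 1 (412) lay below knockdown 3 (557). Blocked DESeq2 called Jag1 as lower (log2 change -1.02, adjusted p = 0.00630). It was not called by limma without (adjusted p = 0.691) or with (adjusted p = 0.149) the replicate term. Exact permutation of the 6 libraries gave p = 0.2 for Jag1. All 10 ductal epithelial markers were listed, and Krt19 was at 30916 ± 4375 in controls and 91822 ± 47641 in knockdowns (SD, n = 3). The summed ductal markers ran from 186936 to 248791 in controls and from 242771 to 605214 in knockdowns, and mitochondrial genes took 0.595%, 1.55% and 2.03% of reads in the controls against 0.555%, 1.02% and 1.20% in the knockdowns of the same numbers. Of 6 immune markers 1 was listed, the macrophage and lysosome gene Cd68, at 98.6, 136 and 111 in controls and 117, 988 and 400.4 in knockdowns. Cd68 rose in blocked DESeq2 (adjusted p = 0.00801) and was furthest from its controls in replicates 2 and 3, while Ptprc, which marks all leukocytes, had no row in the table. The part of these 3 measures in the differences below was not tested. Of 10 markers of stellate cells and fibroblasts, 2 were listed, Pdgfra and Pdgfrb. Their summed count was 35.6 to 44.8 in controls and 28.9 to 45.5 in knockdowns. The collagens Col1a1, Col1a2 and Col3a1 had no row in the table. The lowest total of any listed feature was 61 reads, so a gene without a row can still have held some reads.

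Main differences were tested with limma on log2(normalised count + 1), with Benjamini-Hochberg adjustment over all 13997 tested genes and a threshold of 0.05. This fit called 0 genes (0% of all tested genes), with 1021 at an unadjusted p below 0.05, and called 0 of the 9 members, with 1, Stra6, at an unadjusted p below 0.05. edgeR called 0 genes and 0 members as well, and with a term for the replicate number limma and edgeR each called 2 genes (0.0143%, both higher) and 0 members. DESeq2 on the whole reads, with a term for the replicate number (a blocked fit), called 7.14% of all tested genes, 4.54% as higher and 2.6% as lower. It called 1 of the 9 members, Stra6, as lower. All 9 members passed the filter on low counts, and their median limma log2 change was -0.09, beside 0.00 over all tested genes. Lower in every pair were 3 members (Stra6, Rara and Rarg), where 19.7% of all genes were, and higher in every pair were 2 (Crabp2 and Aldh1a1), where 22.3% of all genes were.

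Stra6, the retinol uptake receptor, was the member with the clearest difference and was lower in the knockdown of every pair. Stra6 (ENSMUSG00000032327; chromosome 9, 58063788 to 58153996, plus strand, GRCm38) stood at 7447, 10718 and 10888 normalised counts in controls 1, 2 and 3. In knockdowns 1, 2 and 3 it stood at 4214, 1749 and 1324. The groups did not overlap, which held for 11.7% of all tested genes (5.44% with the knockdown lower, 6.29% with it higher), and the knockdown kept 56.6%, 16.3% and 12.2% of the control with the same number. Group means were 9684 ± 1939 and 2429 ± 1561 (SD, n = 3), 3.99-fold lower in the knockdown. In these bulk samples, fewer cells with the mRNA and less mRNA per cell cannot be told apart.

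In limma Stra6 had a log2 change of -2.16 (SE 0.43) and an adjusted p of 0.604. That was the smallest adjusted p of that fit, but other genes, Ppard among them, shared it. By unadjusted limma p Stra6 ranked as number 23 of 13997 genes. Permuting the 6 libraries, exact and two-sided, gave p = 0.1, the smallest that 3 against 3 libraries allow. The blocked DESeq2 fit gave -2.18 (SE 0.37, adjusted p = 1.79e-06). Blocked limma (adjusted p = 0.147) and blocked edgeR (adjusted p = 0.173) did not call it. limma on values scaled by the spike-ins did, at -2.34 (adjusted p = 0.00721), a scaling that moved the median of all genes to -0.18 and called 0.829% of them (0.55% higher, 0.279% lower). The blocked DESeq2 call held without both libraries of any 1 number: -2.83 (adjusted p = 4.22e-37 in DESeq2) without replicate 1, -1.93 (adjusted p = 0.00199 in DESeq2) without replicate 2 and -1.72 (adjusted p = 0.00483 in DESeq2) without replicate 3. Those fits were chosen after seeing the data, and called 2167, 100 and 125 of 13997 genes without replicates 1, 2 and 3. By the size of its fall Stra6 ranked as number 53 of 13997 genes in limma.

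**Figure D1:**
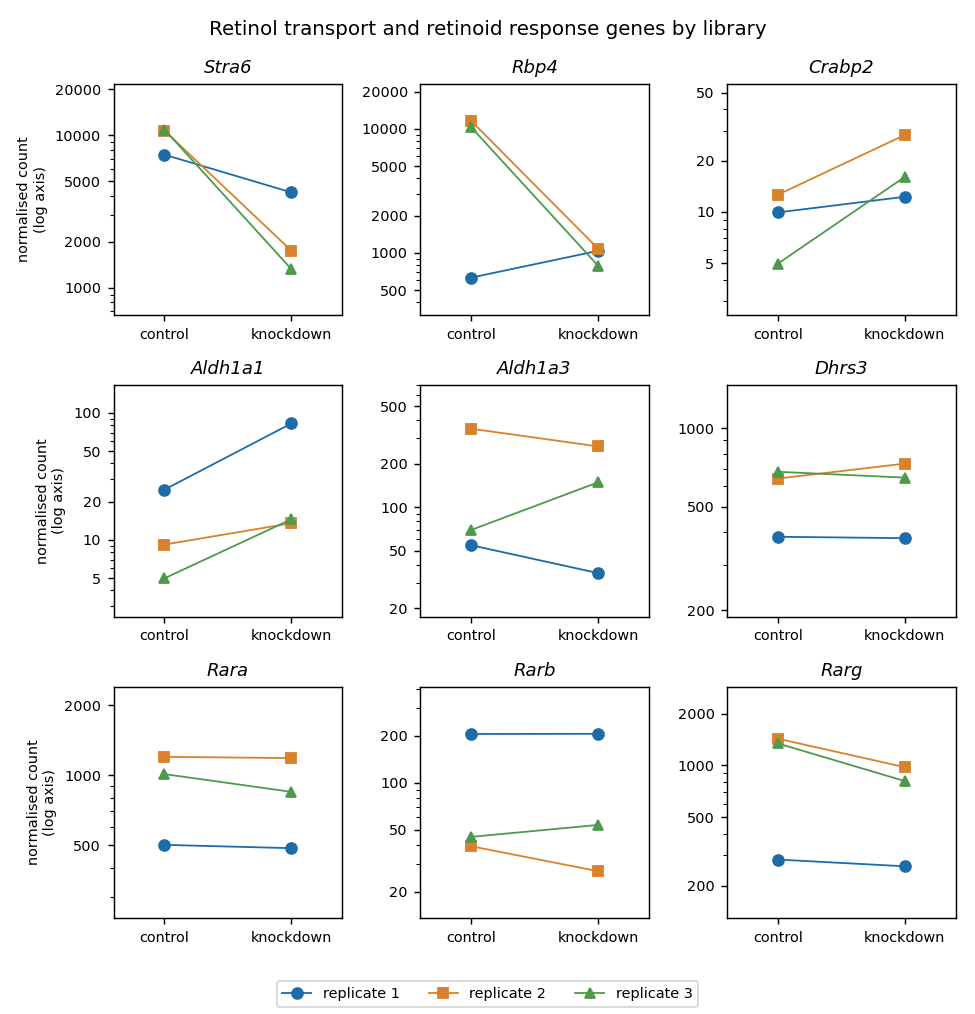
Normalised counts (log axes, 1 panel per gene) of the 9 members in controls and knockdowns, with a line joining libraries of the same replicate number. Stra6 fell along all 3 lines, to 56.6%, 16.3% and 12.2% of control, while Rbp4 stood at 9.35% and 7.66% in replicates 2 and 3, whose controls lay far above control 1.

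Rbp4, the secreted retinol carrier, was high in 2 of the 3 controls and low in all 3 knockdowns. Rbp4 (ENSMUSG00000024990; chromosome 19, 38116629 to 38125281, minus strand) was at 632, 11581 and 10305 normalised counts in controls 1, 2 and 3, and at 1039, 1083 and 789 in knockdowns 1, 2 and 3. Control 1 was the lowest of the 6 libraries, so the groups overlapped. The knockdown stood at 164% of control in pair 1, at 9.35% in pair 2 and at 7.66% in pair 3. The limma log2 change was -2.14 (SE 1.06, adjusted p = 0.716 in limma), and blocked DESeq2 gave -2.36 (SE 1.13, adjusted p = 0.222).

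Rbp4 was called in 5 of 21 alternative fits, 3 of which left out control 1. Without that library limma gave a log2 change of -3.51 (adjusted p = 0.0184), and on replicates 2 and 3 only it gave -3.56 (SE 0.19, adjusted p = 0.00421 in limma). DESeq2 without the replicate term also called Rbp4 (-2.95, adjusted p = 0.0232) beside Stra6, 2 of the 9 members where it called 1.26% of all genes (0.729% higher, 0.536% lower). With control 1 kept, limma on spike-in scaled values called the same 2 members, Rbp4 at -2.32 (adjusted p = 0.0238). That scaling called 0.829% of all genes (0.55% higher, 0.279% lower). It left 580 genes at an unadjusted limma p below 0.05, where the main fit had 1021. Spike-in reads were uneven, with 241314 of 23219455 reads in knockdown 2 and 162446 of 35172593 in knockdown 3. On replicates 2 and 3 only limma called 9.62% of all genes (6.04% higher, 3.57% lower) and the same 2 members as lower, Stra6 with -2.83 (SE 0.18, adjusted p = 0.00421 in limma). The carrier and its receptor were both lower in the knockdown in pairs 2 and 3. In pair 1 they differed in sign, Stra6 by -0.82 and Rbp4 by 0.72 on the log2 scale. Whether the response of Rbp4 differed between pairs could not be tested with 1 library per group and number.

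**Figure D2:**
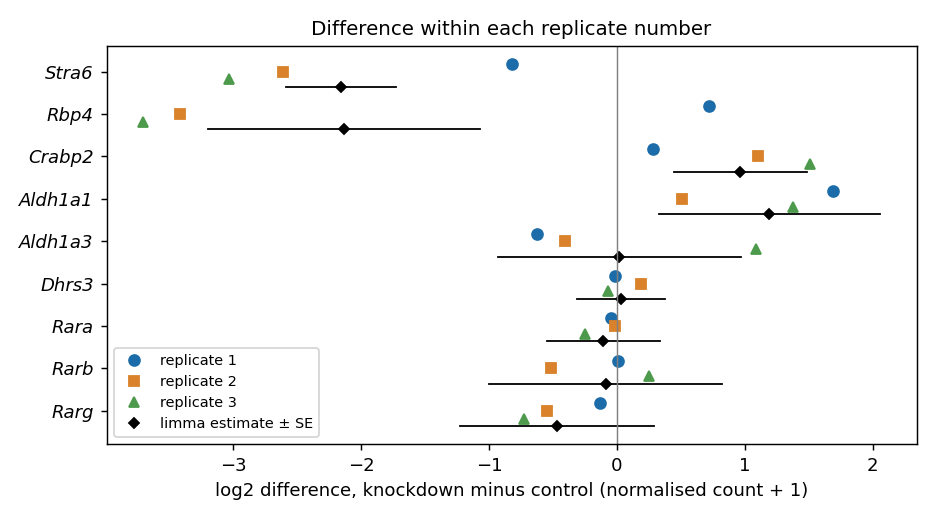
Log2 differences of the normalised count + 1, knockdown minus control, for each member within replicates 1, 2 and 3 (coloured points), with the limma estimate ± SE in black. Rbp4 is the member with the widest spread, from 0.72 in replicate 1 to -3.70 in replicate 3, and the points of Dhrs3 and Rara spread least.

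Crabp2, which delivers retinoic acid to its receptors, was near the lower end of detection. Crabp2 (ENSMUSG00000004885; chromosome 3, 87948666 to 87953376, plus strand) was at 9.94, 12.6 and 4.98 normalised counts in controls and at 12.3, 28.3 and 16.05 in knockdowns, from 4 to 23 reads per library. Each knockdown lay above its own control, and the groups overlapped. The limma log2 change was 0.96 (SE 0.52, adjusted p = 0.741), and DESeq2 on all 6 libraries gave no adjusted p at this count.

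Of the enzymes, neither Aldh1a gene nor Dhrs3 passed any of the tests. Aldh1a1 (ENSMUSG00000053279; chromosome 19, 20492715 to 20643465, plus strand), which makes retinoic acid from retinal and is also used as a stem cell marker, was at 24.9, 9.19 and 4.98 normalised counts in controls. It was at 82.4, 13.5 and 14.5 in knockdowns, higher in each pair, with overlapping groups and a limma log2 change of 1.19 (SE 0.86, adjusted p = 0.817). Its close copy Aldh1a7, at 24.0, 1.15 and 2.49 in controls and 157.9, 9.83 and 3.82 in knockdowns, also followed replicate 1. Reads of this pair can be split between them, so both values are uncertain.

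Aldh1a3 (ENSMUSG00000015134; chromosome 7, 66390890 to 66427517, minus strand), the related enzyme, was at 54.7, 350.3 and 69.8 normalised counts in controls and at 35.1, 264 and 149 in knockdowns. Both libraries numbered 2 were the high ones, and pair 3 ran against the others. Its limma log2 change was 0.02 (SE 0.95, adjusted p = 0.997), a sign that 8 of 21 alternative fits turned. Dhrs3 (ENSMUSG00000066026; chromosome 4, 144892827 to 144928209, plus strand), the retinal reductase, was at 384, 642 and 681 in controls and at 379, 732 and 647 in knockdowns. The knockdown of Dhrs3 was at 98.8%, 114% and 95.0% of control, with a limma log2 change of 0.03 (SE 0.35, adjusted p = 0.992) that changed sign with spike-in scaling (-0.15). Without control 1 it was -0.23 in limma.

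Rara and Rarg were the main receptor mRNAs in every library. Rara (ENSMUSG00000037992; chromosome 11, 98927818 to 98974942, plus strand) was at 501, 1199 and 1010.3 normalised counts in controls and at 485, 1183 and 847 in knockdowns. The limma log2 change of Rara was -0.11 (SE 0.44, adjusted p = 0.977). Rarg (ENSMUSG00000001288; chromosome 15, 102234938 to 102257517, minus strand), the receptor best known from epithelia, was at 284, 1429.8 and 1342 in controls and at 259.6, 977 and 811 in knockdowns. Both replicate 1 libraries were low in Rarg, and each knockdown lay below its control, at 91.4%, 68.3% and 60.5%. Its log2 change was -0.47 (SE 0.76, adjusted p = 0.930 in limma, and 0.195 in blocked DESeq2). Blocked DESeq2 called it only without replicate 1 (-0.64, adjusted p = 0.0419), a fit chosen after seeing the data that called 2167 of 13997 genes.

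Rarb (ENSMUSG00000017491; chromosome 14, 16430839 to 16819156, minus strand), whose promoter carries the DR5 match shown above, had almost the same mean in both groups. It was at 205, 39.0 and 44.8 normalised counts in controls and at 205, 27.0 and 53.5 in knockdowns. Both replicate 1 libraries were high and alike, and the limma log2 change was -0.09 (SE 0.91, adjusted p = 0.992), of no fixed sign across alternatives. Exons of Rarb overlap those of Top2b on the other strand over 1793 bases, and the library kit does not mark strand, so its reads are uncertain. Top2b was at 3119 ± 298 in controls and 2886 ± 953 in knockdowns (SD, n = 3), with 2856 in control 1 and 2423 in knockdown 1. The part of Top2b reads in the Rarb counts was not tested.

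Per length of exon, the receptor mix differed by replicate number. Rara, Rarg and Rarb held 52.1%, 30.3% and 17.6% of the summed receptor count per kb in control 1, and 52.7%, 28.9% and 18.5% in knockdown 1. In the other 4 libraries Rarb held between 1.02% and 2.57%. The share of Rarg was 54.3% in control 2 against 45.4% in knockdown 2, and 56.7% in control 3 against 48.2% in knockdown 3. The sum itself went from 220.4 to 211 per kb in pair 1, from 618 to 505 in pair 2 and from 555 to 395 in pair 3, so each knockdown lay below its own control. These shares were chosen for display after the values were seen and carry no test.

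**Figure D3:**
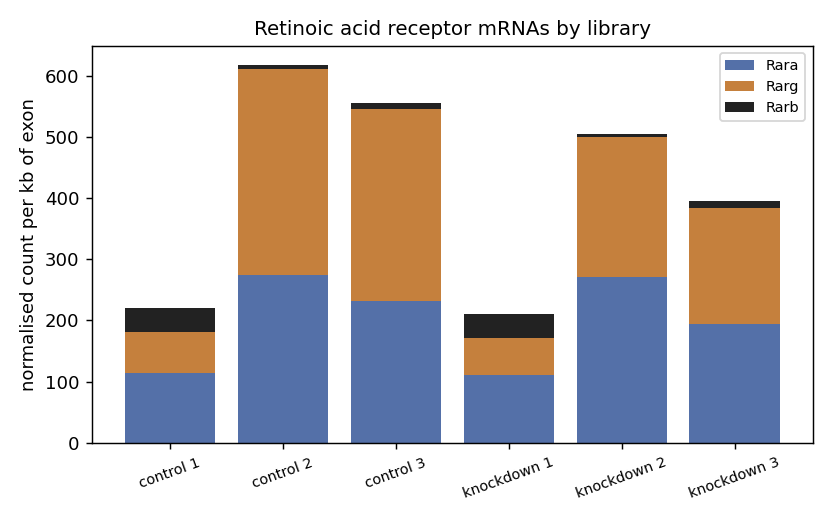
Normalised counts per kb of exon of Rara, Rarg and Rarb, stacked, in each of the 6 libraries. Both replicate 1 libraries reach 220.4 and 211 with a visible Rarb share, and the other 4 reach 395 to 618 with almost none.

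Levels of the members, compared per kb of exon, spanned a wide range in controls. Rbp4 led with a mean of 5589 ± 4458 (SD, n = 3) normalised counts per kb, followed by Stra6 at 1661 ± 333. Rarg at 239 ± 150, Rara at 207 ± 82.7 and Dhrs3 at 194 ± 55.3 per kb came next and lay within each other's spread. Aldh1a3 was at 34.3 ± 36.1 and Rarb at 18.3 ± 17.8, also within their spread. Crabp2 at 6.95 ± 2.94 and Aldh1a1 at 2.63 ± 2.12 per kb were lowest and overlapped in their spread. The spread of Rbp4 also took in Stra6, and in control 1 Rbp4 (471 per kb) lay below Stra6 (1278 per kb). In knockdowns Rbp4 (723 ± 118 per kb) and Stra6 (417 ± 268) stayed first and second by mean. Stra6 overlapped in its spread with Rbp4, Dhrs3, Rara and Rarg. In knockdown 1 it was at 723 per kb beside 774 for Rbp4, and in knockdown 3 at 227 per kb beside 221 for Dhrs3. The spread of Rbp4 was far smaller than in controls.

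Wider genes of the pathway, 94 in 5 lists by role, were set beside the members. Of these, 57 were listed and 54 passed the filter (3 of them stand in 2 lists), with a median limma log2 change of -0.01 beside 0.00 over all tested genes. limma and edgeR called 0 of the 54, with 4 at an unadjusted p below 0.05 in limma. Blocked DESeq2 called 5, of which 2 rose (Fabp5 and Akr1b8) and 3 fell (Ppard, Rdh10 and Rai14), a share near its 7.14% over all genes. On replicates 2 and 3 only, where limma called 9.62% of all genes (6.04% higher, 3.57% lower), it called 8 of the 54, 4 higher and 4 lower: Fabp5, Akr1b8, Foxa1 and Tbx1, and Ppard, Rdh10, Nr2f1 and Nr2f2.

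**Figure D4:**
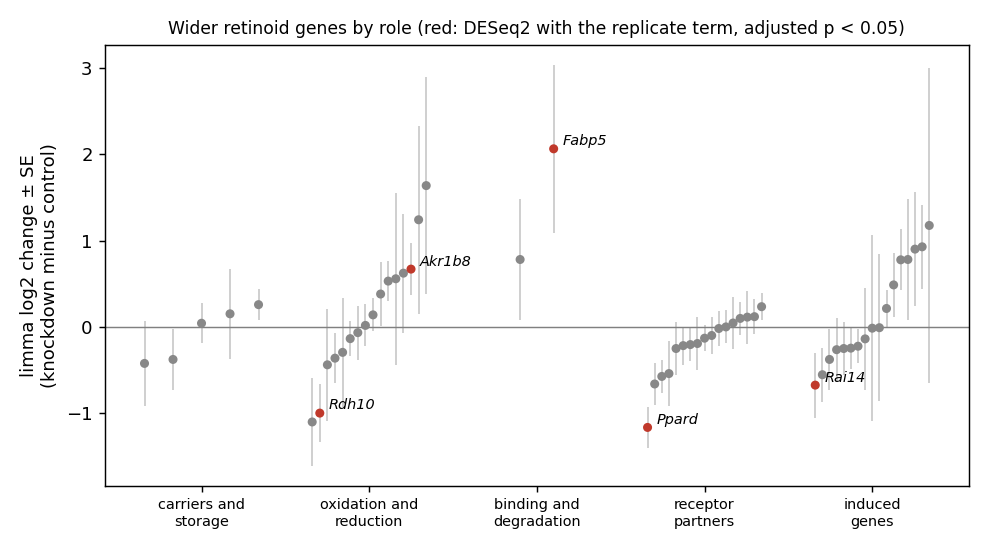
limma log2 change ± SE (knockdown minus control) of the tested genes in the 5 wider lists, drawn by role and sorted within each list, with genes called by blocked DESeq2 in red and named. Most of the 54 genes lie within 1 of 0, and Fabp5 at 2.07 and Ppard at -1.16 are the ends of the range.

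Carriers and storage genes held no called member among 5 tested of 16. Scarb1, a lipoprotein receptor that also takes up carotenoids, was at 1883 ± 223 in controls and 2258 ± 307 in knockdowns (SD, n = 3, limma log2 change 0.26, SE 0.18). Ttr, the plasma partner of Rbp4, did not pass the filter. It was at 115 and 65.8 normalised counts in control 1 and knockdown 1 and at 8.41 or less in the other 4, the reverse of the order of Rbp4 between controls.

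Among 16 tested genes of oxidation and reduction, Rdh10, which oxidises retinol in the first step to retinoic acid, fell in blocked DESeq2. Rdh10 was at 7736, 19593 and 13238 normalised counts in controls and at 5688, 6047 and 7351 in knockdowns, without overlap. The blocked DESeq2 log2 change was -0.99 (SE 0.26, adjusted p = 0.00552), and the limma adjusted p was 0.637. The count of Rdh10 per kb relative to that of Dhrs3 went from 14.2, 21.5 and 13.7 in controls to 10.6, 5.81 and 7.99 in knockdowns. That ratio was chosen after the values were seen. Akr1b8, an aldo-keto reductase of a family that can reduce retinal, rose by 0.67 (SE 0.23, adjusted p = 0.0423 in blocked DESeq2), from 1312 ± 145 to 2190 ± 792. Its groups overlapped, with knockdown 1 at 1331 below controls 2 and 3 at 1415 and 1375, and its limma adjusted p was 0.699. It has close copies in Akr1b7 and Akr1b10, so its reads are uncertain.

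Retinoic acid has a proposed second route in which Fabp5 carries it to Ppard, a nuclear receptor of fatty acids, in place of Crabp2 and the retinoic acid receptors. Fabp5, which has processed pseudogenes that can share its reads, was at 482, 41.3 and 44.8 normalised counts in controls and at 770.04, 294 and 302 in knockdowns. Each knockdown was higher than its control, by 2.80 and 2.72 on the log2 scale in pairs 2 and 3 and 0.67 in pair 1, and control 1 lay above knockdowns 2 and 3. Blocked DESeq2 gave 2.08 (SE 0.54, adjusted p = 0.00455), and limma an adjusted p of 0.701. Ppard was at 4400.1, 5567 and 5519 in controls and at 1973, 3131 and 1952 in knockdowns, without overlap, so the carrier and the receptor went opposite ways. Ppard fell by 1.16 (SE 0.20, adjusted p = 2.70e-06 in blocked DESeq2) and had a limma adjusted p of 0.604. It was the 1 wider gene called by DESeq2 without the replicate term (adjusted p = 0.0133).

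**Figure D5:**
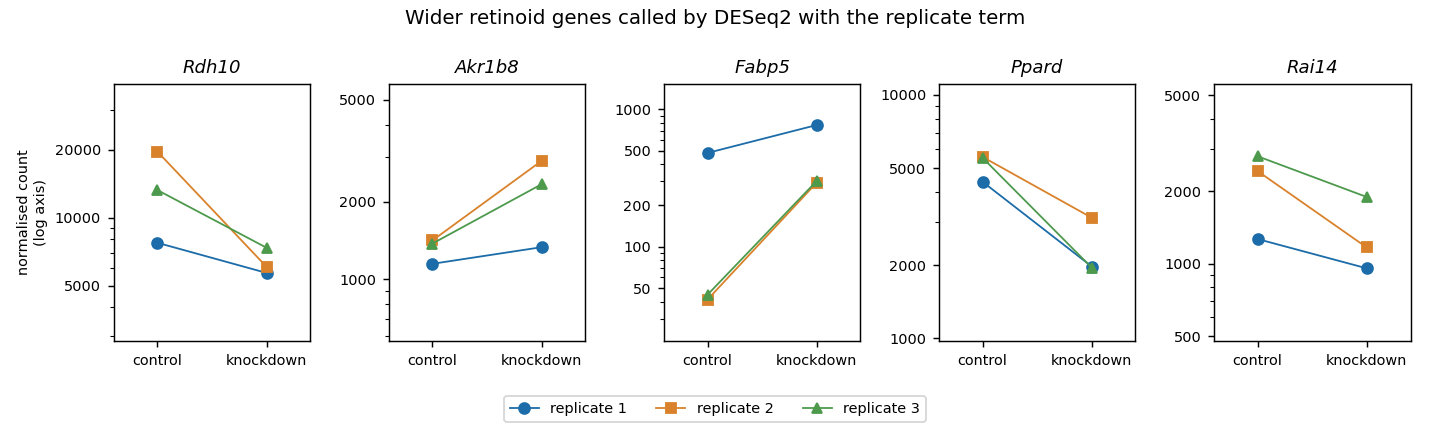
Normalised counts (log axes) of the 5 wider genes called by blocked DESeq2, in controls and knockdowns, with a line joining libraries of the same replicate number. Fabp5 starts at 41.3 and 44.8 in controls 2 and 3 and ends at 294 and 302, and Ppard runs down along all 3 lines.

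Ppard was the 1 receptor partner called by blocked DESeq2. Of 17 tested, 6 had a log2 change above 0 and 11 below, with a median of -0.13. The RXR partners Rxra and Rxrb were at -0.10 (SE 0.21) and -0.20 (SE 0.19) in limma. Nr2f1 and Nr2f2, orphan receptors that can compete for the same half-sites, were at 100.2% and 98.1% of control in pair 1 and lower in pairs 2 and 3. Nr2f1 was at 52.9% and 47.8% of control there, and Nr2f2 at 57.6% and 57.7%. On replicates 2 and 3 only limma gave adjusted p of 0.0237 and 0.0393, while blocked DESeq2 on all libraries gave 0.131 and 0.200.

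Genes listed for a response to retinoic acid in other systems showed no common direction. Of 17 tested members beyond the 9 genes, 7 had a limma log2 change above 0 and 10 below, with a median of -0.01. The list, which holds Tbx1, was not checked for the direction of each gene's response. These counts therefore do not measure retinoic acid activity. Blocked DESeq2 called 1, Rai14, an actin-binding protein first found as a retinoic acid induced gene, which fell by 0.67 (SE 0.21, adjusted p = 0.0261) from 2161 ± 796 to 1339 ± 490. The groups of Rai14 overlapped, and its limma adjusted p was 0.753. Foxa1 and Tbx1 were called on replicates 2 and 3 only, at 1.27 and 1.82 (limma adjusted p = 0.0231 and 0.0285), and with all libraries they had blocked DESeq2 adjusted p of 0.156 and 0.0898. Cyp26b1, which degrades retinoic acid and is induced by it, stood at 15.7, 4.59 and 6.23 normalised counts in controls and 29.8, 14.7 and 6.11 in knockdowns, with 4 to 34 reads per library. Cyp26a1 had no row in the table.

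Genes with a pattern most like that of Stra6 and Rbp4 were sought among all tested genes, by the root-mean-square difference of log2 values centred over the 6 libraries. Closest to Stra6 were Sox7, a transcription factor (0.17), the Wnt ligand Wnt10a (0.27) and the caveolar protein Cavin2 (0.27). Closest to Rbp4 were osteopontin, Spp1 (0.36), and the receptors Pilrb1 (0.44) and Pilrb2 (0.49), which are close copies of each other. Spp1 was at 21687, 221762 and 211707 normalised counts in controls 1, 2 and 3 and at 17682, 33426 and 18015 in knockdowns. Like Rbp4 it was high in controls 2 and 3 alone. Sox7 was at 62.1, 88.4 and 90.9 in controls and 31.6, 15.97 and 13.8 in knockdowns.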

How the data were processed

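RNA of 6 organoid cultures was sequenced (TruSeq RNA v2, per the labels' protocols, a kit that does not mark strand). The deposited signal per gene is a normalised count, in which the authors divided reads by 1 size factor per library. Trimmomatic, DESeq2 1.32.0, STAR 2.5.2b and the build GRCm38 are named, per the submitters' processing notes, and the counting tool is not given in the sources used here. Within 0.001 of a read, 100% of values were whole multiples of 1 step, so whole reads were recovered. All 6 deposited tables were identical, and 5 copies were left out. Of 14302 features, 48 were spike-ins. Symbols, positions and exon lengths came from GENCODE M21 (GRCm38), matched for 14226 genes.

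Genes with at least 10 normalised counts in at least 3 libraries (13997) were tested with limma 3.58.1 in R 4.3.3 on log2(value + 1), without covariate. Alternatives were a replicate block, DESeq2 1.42.0 and edgeR 4.0.16 on recovered reads, other scalings, pseudocounts and filters, and libraries left out. Deviations from group means correlated at r = 0.68, 0.57 and 0.44 between libraries numbered 1, 2 and 3. Across numbers, control 3 with knockdown 2 gave 0.38 and control 2 with knockdown 3 gave 0.37. All other unlike numbers, each with a replicate 1 library, ran from -0.63 to -0.45. The numbers were treated as pairs in the blocked fits and in values given by pair, although what a number stands for is not stated. The main limma fit and the permutation did not use them. This check sets replicate 1 apart and cannot settle which libraries of replicates 2 and 3 belong together. The members and lists were chosen with earlier results of these data known. Named genes were the members, Jag1, called genes of each wider list (otherwise its 2 most abundant) and the 3 nearest patterns of 2 members. A gene that the rule names is not reported here. Rxra, Rxrb, Nr2f1, Nr2f2, Foxa1, Tbx1, Ttr, Aldh1a7, Cyp26b1 and Top2b were added after their values were seen.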

Additional observations from a re-analysis of the deposited data

How the results depend on the processing

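Stra6 and Rbp4 were lower in the knockdown in all 21 alternative fits, from -2.83 to -1.72 and from -3.56 to -1.35 on the log2 scale, and passed in 7 and 5 of them. Counts of called genes moved most. All tested genes went from 0 in limma to 2 with the replicate block in limma and in edgeR, 177 and 1000 in DESeq2 without and with the replicate block, 116 with spike-in scaling and 1346 on replicates 2 and 3 only. Called members went from 0 to 2, 1, 2 and 2 in DESeq2 without and with the block, with spike-in scaling and on replicates 2 and 3, and wider genes from 0 to 1, 5 and 8 in DESeq2 without and with the block and on replicates 2 and 3. In limma the replicate block left members and wider genes at 0. Leaving out 1 library in limma gave 0 to 294 genes, 0 to 1 members and 0 to 2 wider genes, the highest without control 1. Blocked DESeq2 without both libraries of a number, chosen after seeing the data, gave 100 (replicate 2), 125 (replicate 3) and 2167 (replicate 1) genes, 1, 1 and 3 members and 1, 1 and 15 wider genes. The cause was not tested. Spike-in scaling moved the median of all genes to -0.18. Aldh1a3 changed sign with DESeq2 and edgeR without the block (-0.083 and -0.084) and with spike-in scaling (-0.16), and Dhrs3 with spike-in scaling (-0.15). With libraries left out, Aldh1a3 ran from -0.60 to 0.85 (-0.52 in blocked DESeq2 without replicate 3), Dhrs3 from -0.23 to 0.32 (-0.046 in blocked DESeq2 without replicate 2), Rara from -0.48 to 0.24, Rarb from -0.89 to 0.67 (0.12 in blocked DESeq2 without replicate 2) and Rarg from -1.23 to 0.12. Depth limits Crabp2 and Aldh1a1, each with as few as 4 reads in a library, and neither passed the filter at 50, so that setting gave them no value.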
